A study of Mus musculus with 2 samples.

Results

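The 7 genes described here encode lysosomal proteins that degrade lipids and glycans or export the cholesterol set free: Lipa, Npc1, Npc2, Gusb, Hexa, Glb1 and Man2b1. They were chosen by gene symbol, and all 7 were found among the 16614 genes listed in both libraries. The RNA came from C57BL/6 mouse bone marrow macrophages and was sequenced as 1 library of the genotype Foxo3 KO and 1 of the genotype WT. Marrow from femur and tibia had been grown for 3 days with M-CSF, which yields macrophages, and both cultures had then received RANKL, the signal for osteoclast formation, over 2 days. The sources used here do not give the knockout allele, the age of the mice or the number of animals behind each library. With 1 library per genotype there is no replicate error and no test, so every difference below is between these 2 libraries. In the title of the series an isoform of FoxO3, a forkhead transcription factor, is placed in the inhibition of osteoclasts.

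Lysosomes break down what a macrophage or osteoclast takes in. Lysosomal acid lipase, the product of Lipa, cuts cholesteryl esters and triglycerides in the lumen. Npc2, a soluble sterol carrier, hands the freed cholesterol to Npc1, a protein of the lysosomal membrane, for export. The other products are glycosidases. Gusb is beta-glucuronidase, which acts on glycosaminoglycans. Hexa is the alpha subunit of beta-hexosaminidase A, which degrades gangliosides. Glb1 is the lysosomal beta-galactosidase, and Man2b1 is the lysosomal alpha-mannosidase, which trims the glycans of glycoproteins. In humans, inherited loss of any of the 7 causes a lysosomal storage disease. Osteoclasts are rich in lysosomal enzymes and secrete some of them onto bone.

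The upstream sequence of Lipa is shown because Lipa is the member that differed most between the libraries, and a stretch upstream of Glb1 because it was the single member with a match to the motifs searched. Both are RefSeq sequences of build GRCm38.p6, written 5′ to 3′ on the strand of the gene. The Lipa stretch is chr19:34527475-34527724 on the minus strand and ends 1 base before the RefSeq start of the gene. The Glb1 stretch is chr9:114400958-114401067 on the plus strand and ends 11 bases before the RefSeq start, base 114401078, which lies 2 bases inside the GENCODE gene given below. Capitals mark CACGTG, the E-box that TFEB, TFE3 and MITF, regulators of lysosomal genes, are known to bind.
Lipa: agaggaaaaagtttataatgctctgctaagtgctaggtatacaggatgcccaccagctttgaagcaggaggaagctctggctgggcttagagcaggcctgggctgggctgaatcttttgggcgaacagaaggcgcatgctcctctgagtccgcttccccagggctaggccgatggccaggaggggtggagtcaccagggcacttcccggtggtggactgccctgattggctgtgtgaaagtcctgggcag
Glb1: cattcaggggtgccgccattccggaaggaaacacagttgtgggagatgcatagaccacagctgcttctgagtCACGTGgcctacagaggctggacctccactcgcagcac

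Promoter windows of 300 bases (250 before to 50 after the start) were in the RefSeq table for 6 of the 7 genes, Npc1 being the one without an entry, and each had 1 window. On either strand, CACGTG occurred in 1 of the 6, that of Glb1, where it begins 48 bases before the RefSeq start. It occurred in 7.15% of all 32851 windows. The longer E-box TCACGTGA, which contains CACGTG, occurred in 0 of the 6 and in 0.974% of all windows. The forkhead motif GTAAACA, which FoxO factors are known to bind, occurred in 0 of the 6 and in 3.65% of all windows. The lipid, glycan, delivery and biogenesis lists described below hold 45 further genes with a window in the table. In at least 1 window, TCACGTGA occurred in 6 of them (13.3%, against 1.12% of all genes). GTAAACA occurred in 1 of the 45 (2.22%, against 4.05% of all genes). CACGTG occurred in 14 of the 45 (31.1%, against 8.09% of all genes). The 14 include Mcoln1, a lysosomal calcium channel, Ctsa, the protective protein of Glb1, and Igf2r, a mannose 6-phosphate receptor. These letters describe the windows and do not show binding.

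Levels were read as FPKM, a read density corrected for transcript length and sequencing depth. No header or label names the unit, which was inferred, and comparisons of level between genes rest on that reading. Genes at 1 FPKM or more in either library counted as measured, 10003 in all. Foxo3 itself stood at 0.548 FPKM in the KO library, against 10.3 FPKM in the WT library. From the steps in the values of genes of very few reads, the KO library was about 1.40 times as deep as the WT library. The median log2 ratio over all measured genes was 0.03, and 57.6% of them were above 0.

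Of the 7 genes, 1 differed clearly between the libraries. Lipa was lower in the KO library, at 69.1% of its WT level. The other 6, spanning both sterol exporters and all 4 glycosidases, stood between 89.8% and 103.8% of their WT levels in the KO library. All 7 were abundant transcripts in both libraries, from 71.5 to 812 FPKM in the KO library and from 79.6 to 817 FPKM in the WT library.

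**Figure D1:**
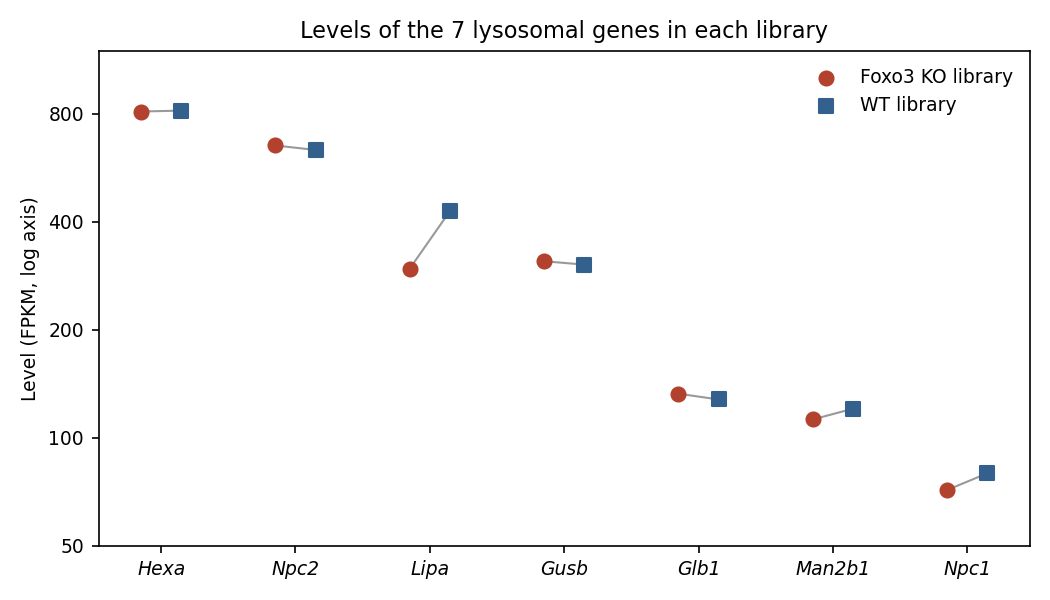
Level of each of the 7 genes in FPKM on a log axis, with the Foxo3 KO library as a circle left of the WT library as a square, 1 library each and no error bars. The line joining the pair is steep for Lipa alone, at 296 FPKM in the KO library and 429 FPKM in the WT library.

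Among the lipid genes, Lipa read 296 FPKM in the KO library, against 429 FPKM in the WT library. The log2 ratio of KO to WT, computed with 1 FPKM added to each value, was -0.53, so Lipa was 1.45-fold lower in the KO library. Npc1 read 71.5 FPKM in the KO library, against 79.6 FPKM in the WT library, a log2 ratio of -0.15. Npc2 read 653 FPKM in the KO library and 635 FPKM in the WT library, a log2 ratio of 0.04. The transcript of the lipase that frees cholesterol was thus lower in the KO library. The transcripts of the pair of proteins that export it differed little between the libraries, and protein was not measured. Npc2 was the more abundant of the pair, at 9.14 times the level of Npc1 in the KO library and 7.97 times in the WT library. For each unit of Npc1, Lipa stood at 4.14 units in the KO library and 5.39 units in the WT library.

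Among the glycosidases, Hexa was the most abundant, at 812 FPKM in the KO library and 817 FPKM in the WT library (log2 ratio -0.01). Gusb read 311 FPKM in the KO library and 304 FPKM in the WT library (log2 ratio 0.03). Those values are nearly equal between the libraries. Glb1 read 133 FPKM in the KO library and 128 FPKM in the WT library (log2 ratio 0.05), and Man2b1 read 112 FPKM in the KO library and 121 FPKM in the WT library (log2 ratio -0.10). Without replicates it cannot be said whether any of these small differences exceeds the spread between cultures.

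In the KO library the order of levels was Hexa, Npc2, Gusb, Lipa, Glb1, Man2b1 and Npc1, and in the WT library Lipa stood above Gusb with the order otherwise the same. Hexa ranked 110 among all listed genes in the KO library and 103 in the WT library. Lipa ranked 293 in the KO library and 200 in the WT library, the largest shift in rank among the members at 100 FPKM or more. Npc1, the member below that level, shifted by more places, from 1040 in the WT library to 1196 in the KO library. The 7 genes summed to 2389 FPKM in the KO library and 2512 FPKM in the WT library. Without Lipa the sum of the 6 was 2093 FPKM in the KO library and 2083 FPKM in the WT library. Lipa made up 12.4% of the sum of the 7 in the KO library and 17.1% in the WT library.

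In place of a test, differences were set against 2 sizes, a 2-fold difference and a log2 ratio of at least 0.32 in either direction, which is a 25% excess in the higher library. At least 2-fold, 0 of the 7 were higher and 0 were lower in the KO library, where 0.120% of measured genes were higher and 0.200% lower. At the smaller size, 0 of the 7 were higher and 1, Lipa, was lower, where 2.96% of measured genes were higher and 4.16% lower. The 1 of 7 is too small a count to set apart from that share. The median log2 ratio of the 7 was -0.01, against 0.03 over all measured genes, and 3 of the 7 were above 0.

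Lipa was also placed among genes of like abundance. From its lowest ratio upward, Lipa ranked 123 among the 10003 measured genes and 8 among the 863 genes at 100 FPKM or more in at least 1 library. Of the 320 other genes whose mean level lay within 2-fold of that of Lipa, 0 had a log2 ratio as low, and the middle 95% of them ran from -0.37 to 0.31. Npc1 lay inside the corresponding range of its own neighbours in level, which ran from -0.38 to 0.28 over 1757 genes, with 10.4% of them at least as low. The remaining 5 members were inside theirs as well. Lipa was singled out after its values were known, so these ranks describe the pair of libraries and are no test.

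**Figure D2:**
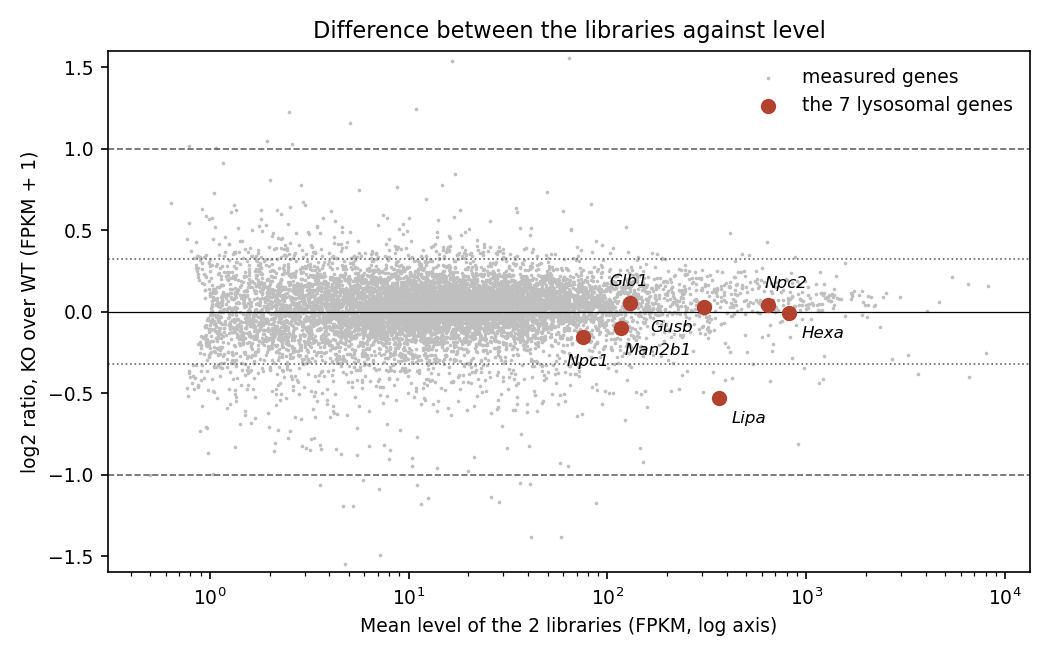
Log2 ratio of KO over WT with 1 FPKM added, against the mean level of the 2 libraries in FPKM on a log axis, for the measured genes (grey) and the 7 lysosomal genes (red). Dotted lines mark a log2 ratio of 0.32 and dashed lines 2-fold, 5 genes lie beyond the axis limit of 1.6, and Lipa at -0.53 is the 1 member outside the dotted lines.

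Annotated exons of Hexa overlap those of Tmem202, those of Glb1 overlap Tmppe, and those of Npc1 overlap Rmc1 and Gm15956 (GENCODE M21). The sources used here do not give whether counting used strand, so reads of such pairs may not be separable. Tmem202 was low, at 3.13 FPKM in the KO library and 2.73 FPKM in the WT library, and Tmppe read 14.0 FPKM in the KO library and 15.1 FPKM in the WT library. Rmc1 and Gm15956 were not among the listed genes, so the overlap with Npc1 could not be sized. Lipa (chromosome 19, 34492318 to 34527474), Npc2 (chromosome 12, 84754562 to 84773152), Gusb (chromosome 5, 129989011 to 130003049) and Man2b1 (chromosome 8, 85083270 to 85098282) overlap no other annotated exon. Hexa lies on chromosome 9 from 59539540 to 59565109, Glb1 on the same chromosome from 114401076 to 114474898, and Npc1 on chromosome 18 from 12189692 to 12236400, all in mm10 coordinates.

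The partners of the glycosidases described here lay within 0.32 of 0 on the log2 scale, as the glycosidases did. Gm2a, the cofactor that lifts gangliosides out of membranes for beta-hexosaminidase A, read 94.7 FPKM in the KO library and 88.5 FPKM in the WT library. Its log2 ratio was 0.10, beside -0.01 for Hexa. Ctsa, the protective protein that stabilises Glb1 in a complex with the sialidase Neu1, read 379 FPKM in the KO library and 363 FPKM in the WT library. Glb1 stood at 0.350 times Ctsa in the KO library and 0.352 times in the WT library. Neu1 read 37.1 FPKM in the KO library and 33.3 FPKM in the WT library, a log2 ratio of 0.15.

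Further lysosomal lipid genes divided evenly, with 8 of 16 higher and 8 lower in the KO library and a median log2 ratio of -0.01. After trimmed-mean scaling or centring 7 were higher and 9 lower. Of the 16, 0 were higher and 1 was lower by at least 0.32 on the log2 scale, against 2.96% and 4.16% of all measured genes. The lower gene was Scarb2, a lysosomal membrane protein and sorting receptor, at 22.0 FPKM in the KO library and 28.7 FPKM in the WT library. Psap, the precursor of the saposin cofactors, read 2942 FPKM in the KO library and 3542 FPKM in the WT library (log2 ratio -0.27). Arsa, the arylsulfatase that acts on sulfatide, read 35.1 FPKM in the KO library and 29.0 FPKM in the WT library (log2 ratio 0.27). Of 20 further glycan genes 11 were higher, their median was 0.03, and 0 passed that size in either direction. Under centring 10 of the 20 were higher. Farthest from 0 were Hyal1, a hyaluronidase, at -0.29, Hgsnat, an acetyltransferase of heparan sulfate breakdown, at 0.23, and Galns, a sulfatase, at -0.23. Gaa, the acid glucosidase of glycogen, stood at 0.07.

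Most soluble lysosomal enzymes are tagged with mannose 6-phosphate in the Golgi and sorted by receptors. Of 10 tagging and delivery genes 6 were higher in the KO library, with a median log2 ratio of 0.02. After either scaling 5 of the 10 were higher. The 1 past a log2 ratio of 0.32 in size was Sort1, a sorting receptor, at 4.74 FPKM in the KO library and 6.95 FPKM in the WT library. The receptor gene M6pr read 406 FPKM in the KO library and 363 FPKM in the WT library (0.16). Igf2r, the other mannose 6-phosphate receptor, had a log2 ratio of -0.04, Gnptab and Gnptg, subunits of the tagging enzyme, had -0.04 and 0.23, and Gga2, an adaptor that sorts these receptors, had 0.13. Of 10 biogenesis and membrane genes 5 were higher and 0 passed 0.32, with a median of -0.01, although only 3 were above 0 after trimmed-mean scaling or centring. The regulators Tfeb, Tfe3 and Mitf had log2 ratios of 0.03, 0.01 and -0.23, and Mcoln1 had 0.05. The abundant transcripts of the membrane proteins Lamp1 and Lamp2 stood at -0.25 and -0.24, with Lamp1 at 462 FPKM in the KO library and 549 FPKM in the WT library.

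Genes that take up, store, export or sense cholesterol went in both directions. Of 13 measured, 7 were lower and 6 higher in the KO library, with a median log2 ratio of -0.19 that changed sign when genes under 10 FPKM were left out. Lower by at least 0.32 on the log2 scale were 4 of the 13, and 0 were as much higher. Over all measured genes 4.16% were as much lower and 2.96% as much higher. Nceh1, a cholesteryl ester hydrolase outside the lysosome, read 43.7 FPKM in the KO library and 56.7 FPKM in the WT library (-0.37). Soat1, which re-esterifies cholesterol at the endoplasmic reticulum, read 41.2 FPKM in the KO library and 52.1 FPKM in the WT library (-0.33). Lrp1, an endocytic receptor for lipoprotein remnants, read 22.8 FPKM in the KO library and 33.8 FPKM in the WT library (-0.55), and Gramd1b, a sterol transfer protein, had a log2 ratio of -0.37. The transcripts of Lipa, Nceh1 and Soat1 were thus each lower in the KO library, although Nceh1 and Soat1 come from a list that went both ways. Both have mean levels within 2-fold of that of Npc1. Their log2 ratios lie inside the range of -0.38 to 0.28 that holds the middle 95% of the neighbours of Npc1. Whether the 3 fell together was not tested. Abca1, the cholesterol exporter of the cell surface, read 23.2 FPKM in the KO library and 26.6 FPKM in the WT library (-0.19). On the other side, Insig1, a sterol-regulated protein of the endoplasmic reticulum, read 54.2 FPKM in the KO library and 46.3 FPKM in the WT library (0.22), and Gramd1a, a sterol transfer protein, had a log2 ratio of 0.18.

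**Figure D3:**
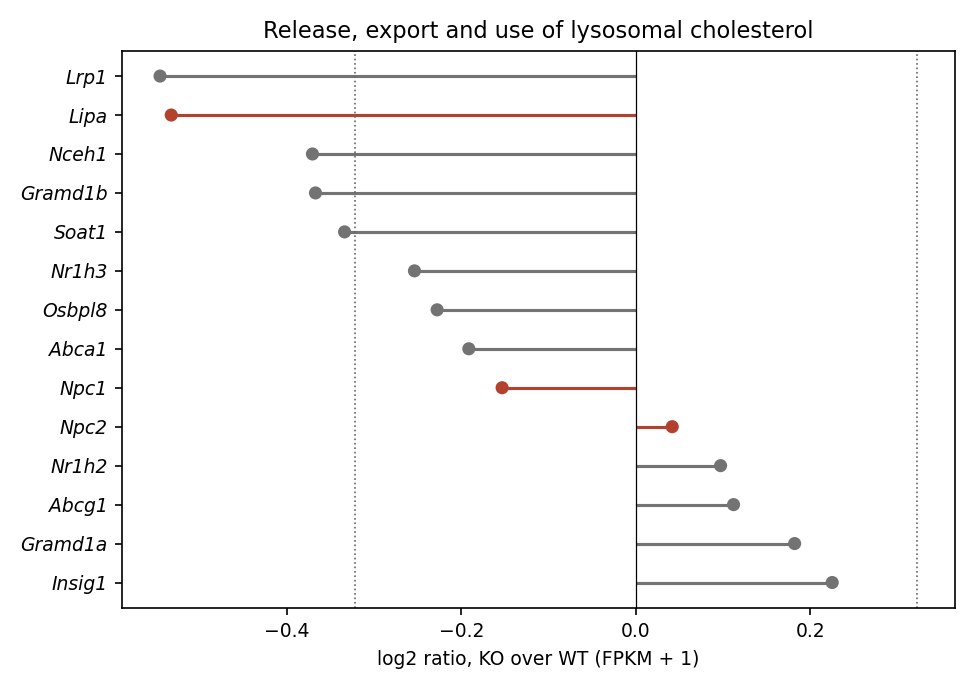
Log2 ratio of KO over WT with 1 FPKM added, for Lipa, Npc1 and Npc2 (red) and 11 of the 13 measured genes of cholesterol use (grey), ordered by ratio, with dotted lines at 0.32 to either side of 0. Lipa lies between Lrp1 at -0.55 and Nceh1 at -0.37, while Npc1 and Npc2 lie between the dotted lines.

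Over these 5 lists together 69 genes were measured. Of them 6 were lower in the KO library by at least 0.32 on the log2 scale, and 0 were as much higher. Over all measured genes 4.16% were as much lower and 2.96% as much higher. The genes of cholesterol use made up 4 of the 6. Among the 69, 1, Lrp1, had a lower log2 ratio than Lipa. The 2 most similar groups of lysosomal genes had medians on opposite sides of 0. Cathepsins other than cathepsin K, the lysosomal proteases, had a median of -0.19 and were lower for 11 of 12 genes. Lowest were the legumain gene Lgmn at 252 FPKM in the KO library and 355 FPKM in the WT library (-0.49), Ctsb (-0.42) and Ctsl (-0.37). These were the 3 of the 12 lower by at least 0.32, and 0 were as much higher. The gene that was higher was Ctsa (0.06), which is also counted among the further glycan genes. V-ATPase subunits, which acidify the lysosome, had a median of 0.08 and were higher for 17 of 18 genes, or for 16 after trimmed-mean scaling and 14 after centring. The exception was Atp6v0a1, at 27.0 FPKM in the KO library and 41.5 FPKM in the WT library (-0.60). Most of the subunits had mean levels between 322 and 1288 FPKM, within 2-fold of that of Npc2. The 218 genes of that range other than Npc2, these subunits among them, had a median of 0.07, near that of the subunits. The 6 members other than Lipa, which was set aside after its values were known, had a median of 0.01. That lies between the medians of the cathepsins and the V-ATPase subunits, and near the 0.03 of all measured genes. The log2 ratios of the 6, from -0.15 to 0.05, lie inside the range of the cathepsins, from -0.49 to 0.06. No test of the difference between the groups was possible with 1 library each.

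**Figure D4:**
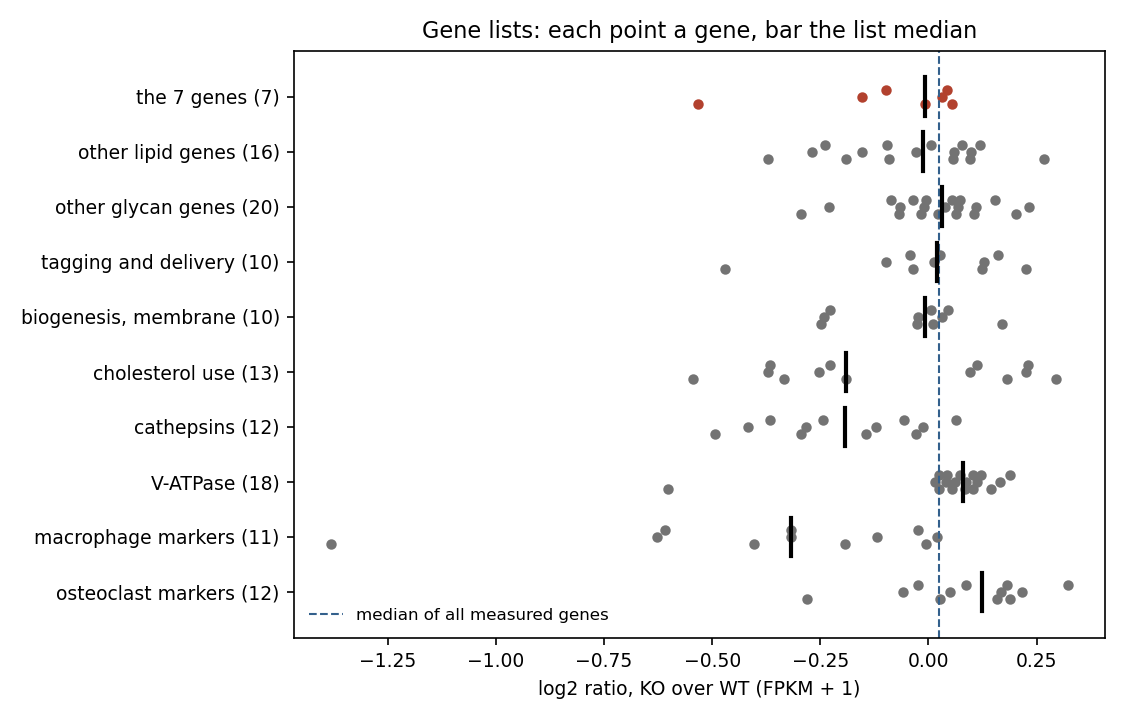
Log2 ratio of KO over WT with 1 FPKM added, for each measured gene of 10 lists (points, with the number of genes in brackets), with list medians as black bars and the median of all measured genes, 0.03, as a dashed line. The 7 genes cluster near 0 except for Lipa, the cathepsins lie mostly below 0 and the V-ATPase subunits mostly above it.

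The labelled cell type was checked against markers. Of 12 macrophage markers 11 were found and measured, and the abundant Lyz2, Cd68 and Csf1r stood at 5674, 1546 and 695 FPKM in the KO library and at 7501, 1573 and 697 FPKM in the WT library. Beside the lower Lipa, 10 of these 11 markers were lower in the KO library, 11 after either scaling, with a median of -0.32 and a sum of 8278 FPKM in the KO library and 10244 FPKM in the WT library. Most of the gap between the sums lay in Lyz2. The median is the value of Cd163, which was low, at 1.17 FPKM in the KO library and 1.70 FPKM in the WT library. With a pseudocount of 5 FPKM the median of the markers was -0.14, and with a minimum of 10 FPKM it was -0.255. Lowest were Cd36, a lipid scavenger receptor (-1.38), Mrc1, the mannose receptor (-0.63), and Mertk, a receptor for dying cells (-0.61), while Cd68, itself a lysosomal membrane protein, stood at -0.02. Lipa stood at 0.192 times Cd68 in the KO library and 0.273 times in the WT library. Osteoclast markers were higher for 9 of 12 genes, with a median of 0.12 and a sum of 23338 FPKM in the KO library and 20752 FPKM in the WT library; Car2 (0.32), Itgb3 (-0.28) and Mmp9 (0.22) lay farthest from 0. In bulk RNA, fewer cells of a type and less RNA per cell cannot be told apart, and the part of either cell type in the level of Lipa was not tested.

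Markers of other cells were looked up in the same way, and neutrophil transcripts were present in both libraries. S100a8 read 67.0 FPKM in the KO library and 70.2 FPKM in the WT library, S100a9 read 55.4 FPKM in the KO library and 53.6 FPKM in the WT library, and Ngp read 22.0 FPKM in the KO library and 24.5 FPKM in the WT library. The first of these is close to the level of Npc1. Neutrophil markers summed to 154.5 FPKM in the KO library and 157.3 FPKM in the WT library over 7 genes, with 3 of the 6 measured lower, and Ngp, S100a8 and S100a9 had log2 ratios of -0.15, -0.07 and 0.05. The other markers were low. Lymphoid markers summed to 0.340 FPKM in the KO library and 0.2495 FPKM in the WT library, with Cd3e and Nkg7 listed at 0 in both. The 4 erythroid markers found summed to 0.491 FPKM in the KO library and 0.614 FPKM in the WT library. Stromal markers summed to 7.23 FPKM in the KO library and 7.76 FPKM in the WT library, with Lum at 0 in both, and dendritic cell markers to 2.16 FPKM in the KO library and 1.65 FPKM in the WT library, with none of the 6 at 0.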

How the data were processed

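The 2 deposited tables, 1 per library, give a gene symbol and a value. The values were read as FPKM made by the authors. No header or label names the unit, which was inferred from the values being fractional and summing to 540601 in the KO and 530701 in the WT library. A constant of 0.000001, apparently added to every value, was subtracted. Libraries were made from poly-A RNA with a TruSeq kit, per the labels' protocols. TopHat, edgeR and mm10 are named in the submitters' processing notes, without versions or roles; the sources used here do not give the quantifier, annotation or filters. Read totals are unknown, so no counting interval is given. Relative depth was taken from the most frequent KO/WT ratio (bins of 0.02 on the log2 scale) among 1657 genes above 0 and below 0.15 FPKM in both libraries.

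The measure was log2(KO + 1) minus log2(WT + 1), which understates differences of low genes. With 1 library per group no test was made, and sizes of 2-fold and of a 25% excess in the higher library (a log2 ratio of 0.32) took its place. The members and lists were chosen with earlier results of these data known. Genes named are the members, Foxo3, functional partners, and the 3 genes of each list farthest from 0 at 10 FPKM or more in 1 library. Gramd1a, Gramd1b, Insig1, Sort1, Lyz2, Cd68 and Csf1r, and the markers named as listed at 0, were named after their values were seen. A few genes of the lists are counted but not reported here by name. Alternatives were pseudocounts of 0.25 and 5 FPKM, trimmed-mean scaling (30% of log ratios from each end, 5% of levels), centring on the median gene, no minimum, a minimum of 10 FPKM, the mean over members, and removal of a lowess trend on level (span 0.3). The arithmetic alone was checked by planting known fold changes in shuffled real ratios, without replicate or counting noise. Coordinates are GENCODE M21 (mm10), sequences RefSeq. Python 3.11.15, numpy 2.4.6, pandas 2.3.3, statsmodels 0.14.6 and matplotlib 3.10.9 were used.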

Additional observations from a re-analysis of the deposited data

How the results depend on the processing

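The log2 ratio of Lipa ran from -0.60 to -0.53 over 5 alternatives, and Lipa was the 1 member past a log2 ratio of 0.32 in size in all 6 recounts, with 0 members past 2-fold. Removing the trend on level put Npc2 at -0.03 and Gusb at -0.03, below 0; the other members kept their sign. Of 76 recomputed list medians 74 moved by less than 0.141, the spread of log2 ratios over all measured genes. That size exceeds most of the list medians themselves, so staying within it does not settle their sign. The medians of the tagging and delivery genes and of the neutrophil markers changed sign in 2 alternatives each. Removal of the trend on level was not applied to the lists. The macrophage marker median was -0.1402 with a pseudocount of 5 FPKM, which shrinks all ratios of low genes. The median of the cholesterol use genes was 0.0970 with a minimum of 10 FPKM, which drops genes of that list. Trimmed-mean scaling divides the KO values by 1.01 and centring by about 1.02, so neither could move Lipa far. No paired analysis was possible because there is 1 library per genotype, and no replicate could be left out. Unknown read totals limit low genes most. Over all measured genes, those past 2-fold numbered 12 higher and 20 lower as reported, against 5 higher and 6 lower with a pseudocount of 5 FPKM, 39 lower with 0.25 FPKM and 5 higher with a minimum of 10 FPKM. Those past 0.32 numbered 296 higher and 416 lower as reported, against 88 and 194 with a pseudocount of 5 FPKM and 136 and 209 with a minimum of 10 FPKM.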
